A study of Mus musculus with 8 samples.

Results

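The genes described here are 35 genes of endoplasmic reticulum (ER) protein folding and of the unfolded protein response (UPR), taken by symbol from the 25834 genes of the deposited count table. All 35 symbols were found. They fall by role into 4 sensors and transducers (Xbp1, Atf6, Ern1 and Eif2ak3), 26 genes of the chaperone arm, most of them known targets of XBP1 and ATF6, and 5 genes of the PERK-ATF4 arm (Atf4, Ddit3, Trib3, Chac1 and Asns). RNA was sequenced from the hippocampus of 4 SAP97-cKO and 4 control male mice, 1 library per mouse. SAP97-cKO mice carry Nestin-cre together with a floxed SAP97 gene (SAP97 fl/fl). Controls were littermates with Cre alone (Nes-cre+/-), with the floxed gene alone or with neither. Hippocampal tissue for protein work came from mice at 2 months of age. The age of the mice sequenced was not stated separately, and which of these genotypes each control library has was not stated. The Nestin promoter drives Cre in neural progenitors, so the neurons and glia derived from them carry the deletion. Library totals were 37388177 to 37416649 counts in controls and 37391907 to 37426572 counts in SAP97-cKO. The authors had resampled the libraries to a common depth, so the near-equal totals do not give the depth sequenced.

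Secreted and membrane proteins, among them the receptors and adhesion proteins of synapses, enter the ER through a membrane channel and are folded there by chaperones, disulfide isomerases and lectins. When unfolded proteins accumulate, the sensors IRE1 (the product of Ern1), ATF6 and PERK (the product of Eif2ak3) are released from the chaperone BiP. IRE1 splices Xbp1 mRNA and XBP1 and the cleaved ATF6 then switch on genes of folding and of ER-associated degradation, while PERK slows translation and favours the translation of ATF4, which switches on genes of amino acid supply and, later, Ddit3 (CHOP). Counts per gene do not show Xbp1 splicing, ATF6 cleavage or the translation of Atf4, so the values below are levels of mRNA alone.

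The library labels were first read against Dlg1, the gene for SAP97. Dlg1 averaged 4338 normalized counts in controls (SD 336, n = 4 mice) and 2393 in SAP97-cKO (SD 470.1, n = 4), and the groups did not overlap. These counts cover the whole gene. For a single SAP97 exon in the same samples, the paper reports a much larger fall. Markers of hippocampal neurons were present in all libraries, with Snap25 at a mean of 103500 normalized counts in controls (SD 2644, n = 4) and 101400 in SAP97-cKO (SD 6094, n = 4). Normalized counts are deposited counts divided by the library total times its TMM factor (trimmed mean of M values, 0.964 to 1.03). They were then multiplied by the mean of these scaled totals over all libraries.

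Of the 35 genes, 3 were lower in SAP97-cKO hippocampi and 0 were higher at the false discovery rate (FDR) of 0.25 that the study uses (edgeR quasi-likelihood test, adjusted over all 16251 genes tested). The 3 were Sdf2l1, Manf and Creld2, all of the chaperone arm. Over all genes tested, 0.283% were lower and 0.0123% higher by the same rule. All 35 genes passed the filter on low counts. None of the 35 passed the FDR threshold in edgeR once control 2, SAP97-cKO 3 or SAP97-cKO 4 was left out, and 10 passed without control 1, where the count over all genes rose as well (960 lower and 715 higher of 16469 genes tested). At an unadjusted p under 0.05, 15 of the 35 genes were lower and 0 were higher, against 7.01% and 4.73% of all genes tested. In 13 of the 35, every SAP97-cKO library lay below every control library, and in 0 every one lay above, against 3.47% and 2.78% of all genes. The log2 fold change was below 0 in 26 of the 35 genes and in 52.8% of all genes tested. The median log2 fold change of the 35 genes was -0.14, and that of all genes tested was -0.01. limma-voom and DESeq2 also gave 0 higher genes among the 35. They gave 3 and 12 lower genes, where they called 50 and 1033 of all genes. With meningeal fibroblast or choroid plexus markers as a covariate in edgeR, 0 of the 35 passed. Of the 35, Sdf2l1, Manf, Creld2, Xbp1, Pdia3 and Pdia4 are also on a list of changed genes that the study drew from these same libraries. Their change is therefore not independent evidence. That list prints Creld2 and Pdia4 with the opposite sign to Sdf2l1, Manf, Xbp1, Pdia3 and Dlg1.

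**Figure D1:**
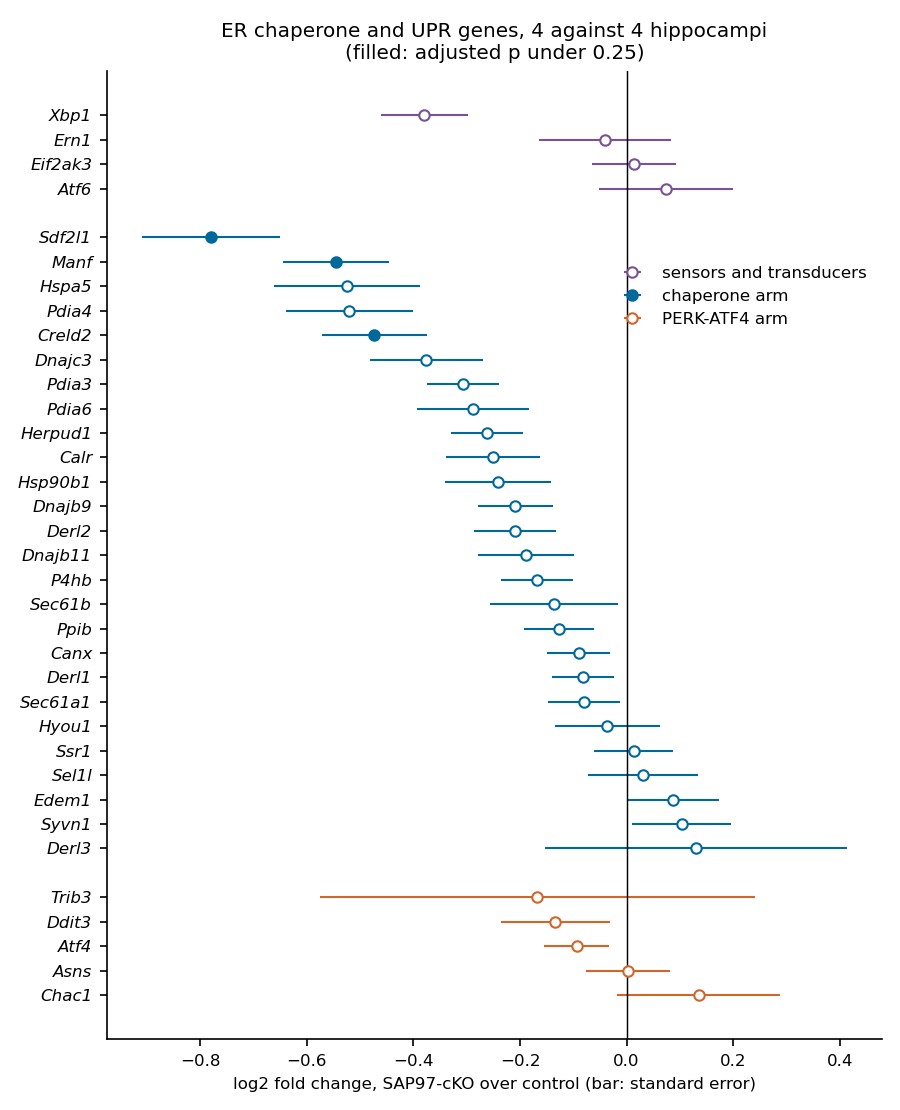
Log2 fold change (x axis, SAP97-cKO over control) of each of the 35 genes (y axis), grouped as sensors and transducers, chaperone arm and PERK-ATF4 arm. Points are edgeR estimates from 4 against 4 libraries, bars are standard errors, and filled points mark an adjusted p under 0.25. Sdf2l1, Manf and Creld2 are filled, 21 of 26 chaperone arm genes lie below 0, and the PERK-ATF4 arm spans -0.17 to 0.14.

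Promoter sequences are shown for some genes of the arms compared. The arms were set by role and not by binding of factors, which was not measured. The sequences are the RefSeq promoters of GRCm38.p6, 250 bases before to 50 after the RefSeq start, written 5′ to 3′ on the gene's strand. Sdf2l1 and Creld2 were the genes past the threshold that had an entry, and Manf is named only. Hspa5 was added after its values had been seen, because it is the best known gene of the chaperone arm. Asns and Chac1 were taken from the PERK-ATF4 arm because they hold a searched motif, so its presence in them was fixed in advance. The windows of Atf4 and Ddit3 held none. Asns and Chac1 were also the 2 of the 5 PERK-ATF4 genes with log2 fold changes above 0, so they do not represent the arm. Capitals mark the motifs searched, which were the ER stress response element (ERSE: CCAAT, any 9 bases, CCACG), the related ERSE-II (ATTGG, any 1 base, CCACG), the UPR element (TGACGTGG) and an ATF4 element (TGATG, any 1 base, AA), each on both strands. ERSE and ERSE-II share their CCACG, and ATTGG is CCAAT read on the other strand.
Sdf2l1 (chr16:17132334-17132633, minus strand): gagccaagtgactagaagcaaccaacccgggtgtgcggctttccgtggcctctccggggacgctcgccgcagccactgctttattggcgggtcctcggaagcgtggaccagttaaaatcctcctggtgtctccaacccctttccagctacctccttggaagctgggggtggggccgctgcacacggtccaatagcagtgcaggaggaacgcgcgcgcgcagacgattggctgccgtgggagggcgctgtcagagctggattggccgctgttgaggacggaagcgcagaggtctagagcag
Creld2 (chr15:88819396-88819695, plus strand): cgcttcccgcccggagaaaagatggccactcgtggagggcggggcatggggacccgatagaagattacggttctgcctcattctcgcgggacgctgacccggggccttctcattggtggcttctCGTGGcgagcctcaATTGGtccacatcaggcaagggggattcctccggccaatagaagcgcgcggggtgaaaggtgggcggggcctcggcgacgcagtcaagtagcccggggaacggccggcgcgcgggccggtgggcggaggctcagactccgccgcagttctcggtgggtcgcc
Hspa5 (chr2:34771840-34772139, plus strand): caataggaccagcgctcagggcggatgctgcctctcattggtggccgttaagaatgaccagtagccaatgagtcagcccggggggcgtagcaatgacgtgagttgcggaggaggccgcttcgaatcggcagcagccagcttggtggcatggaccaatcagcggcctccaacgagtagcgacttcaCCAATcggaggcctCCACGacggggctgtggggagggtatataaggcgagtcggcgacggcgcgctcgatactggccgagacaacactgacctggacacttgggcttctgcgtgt
Asns (chr6:7693160-7693459, minus strand): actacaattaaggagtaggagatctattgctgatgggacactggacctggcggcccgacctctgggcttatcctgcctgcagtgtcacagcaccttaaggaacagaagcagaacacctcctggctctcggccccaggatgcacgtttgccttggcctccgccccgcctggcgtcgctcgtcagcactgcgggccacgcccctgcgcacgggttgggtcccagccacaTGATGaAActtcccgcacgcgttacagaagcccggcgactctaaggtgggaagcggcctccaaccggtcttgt
Chac1 (chr2:119350992-119351291, plus strand): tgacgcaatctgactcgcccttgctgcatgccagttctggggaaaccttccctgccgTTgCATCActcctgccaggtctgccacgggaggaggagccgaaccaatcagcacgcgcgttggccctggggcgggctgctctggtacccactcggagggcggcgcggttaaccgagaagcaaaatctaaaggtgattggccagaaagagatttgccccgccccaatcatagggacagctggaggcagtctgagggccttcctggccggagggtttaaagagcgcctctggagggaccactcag

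In these windows the ERSE of Hspa5 began 65 bases before the RefSeq start and that of Creld2, on the other strand, 126 bases before it. The ATF4 element of Asns began 23 bases before the start and that of Chac1, on the other strand, 193 bases before it. For Hspa5, Asns and Chac1 the RefSeq start is not the GENCODE start of the gene positions printed here, and the elements of Hspa5 and Asns lie downstream of the GENCODE start. The window of Sdf2l1 held none of the motifs. Of 32851 RefSeq promoters, 0.119% held the ERSE, 0.0365% ERSE-II, 0.676% the UPR element and 3.97% the ATF4 element.

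Of the 26 chaperone arm genes, 22 had a promoter entry, and Manf, Hyou1, Derl1 and Sec61a1 had none. The ERSE was found in 9 of the 22, namely Calr, Canx, Creld2, Derl3, Dnajc3, Hsp90b1, Hspa5, Pdia6 and Syvn1. ERSE-II was found in Dnajb11 and Herpud1. None of the 5 PERK-ATF4 genes and none of the 3 sensors and transducers with an entry held either of these elements, and the ATF4 element was found in Asns, Chac1 and Trib3 of the PERK-ATF4 arm and in Herpud1 of the chaperone arm. The UPR element was found in none of the genes with an entry, and Atf6 was the sensor without one. The 9 chaperone arm genes with the ERSE had a median log2 fold change of -0.25 (range -0.53 to 0.13), with 7 below 0. The 13 without it had a median of -0.19 (range -0.78 to 0.09), with 10 below 0. A match is a description of the sequence and was not measured as a binding site.

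Sensors and transducers were examined first, since the rest of the response runs through them. Xbp1, the factor activated by IRE1, had 3828, 3292, 2994 and 3254 normalized counts in controls 1 to 4 and 2554, 2751, 2561 and 2409 in SAP97-cKO 1 to 4. Each SAP97-cKO library was below each control library. The log2 fold change was -0.38 (standard error 0.08), with an adjusted p of 0.268 from edgeR, which just missed the threshold of 0.25. The exact two-sided permutation test over the 70 assignments of the 8 libraries gave p = 0.0286 for Xbp1, the smallest that 4 mice against 4 allow. With all 8 libraries, Xbp1 passed the threshold in DESeq2, without scaling, without a filter on low counts and with the replicate number as a block. It did not pass in limma-voom, with DESeq2 size factors in edgeR or with at least 10 counts in every library. Nor did it pass with choroid plexus or meningeal fibroblast markers as a covariate (log2 fold change -0.37 and -0.23). With libraries left out in turn, Xbp1 passed without control 1, control 3 or SAP97-cKO 1.

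The other sensors overlapped between the groups. Atf6, the ER membrane precursor of a transcription factor, had 4500, 4165, 4060 and 3028 normalized counts in controls and 4698, 3477, 4232 and 4175 in SAP97-cKO. Control 4 was lowest of all libraries for Atf6 and SAP97-cKO 1 highest (log2 fold change 0.07, standard error 0.13, adjusted p = 0.826 from edgeR). Ern1, which encodes the kinase and ribonuclease IRE1, had 484, 534, 491 and 362 normalized counts in controls and 502, 436, 454 and 429 in SAP97-cKO. Its log2 fold change was -0.04 (standard error 0.12), and control 4 was again the lowest. Eif2ak3, which encodes the translation kinase PERK, had 1113, 1042, 1020 and 906 normalized counts in controls and 1075, 977, 1077 and 992 in SAP97-cKO. The values of Eif2ak3 were interleaved between the groups (log2 fold change 0.01, standard error 0.08, adjusted p = 0.953 from edgeR). The sign of the differences of Atf6, Ern1 and Eif2ak3 turned under other settings, given in the closing section.

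In the chaperone arm, 3 of 26 genes fell at the FDR threshold in edgeR, against 0.283% of all genes tested. At an unadjusted p under 0.05, 14 were lower, against 7.01% of all genes. The log2 fold change was below 0 in 21, against 52.8% of all genes. With the level of meningeal fibroblast markers as a covariate, given below, 1 of the 26 was lower at an unadjusted p under 0.05 in edgeR. The groups did not overlap in 12 of the 26, with SAP97-cKO lower in each, against 3.47% of all genes tested. The median log2 fold change was -0.20, and single genes ran from -0.78 to 0.13. In bulk tissue, fewer cells of a type and less RNA per cell cannot be told apart.

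Sdf2l1, an ER protein that works with BiP and its J-domain partners, fell most in fold among the 35. It had 648, 542, 485 and 435 normalized counts in controls and 289, 293, 310.0 and 336 in SAP97-cKO. Every SAP97-cKO library was below the lowest control. The mean fell to 58.2% of control (log2 fold change -0.78, standard error 0.13, adjusted p = 0.143 from edgeR). Sdf2l1 (ENSMUSG00000022769) lies on the minus strand of chromosome 16 of GRCm38, chr16:17130138-17132383, and its exons overlap no other annotated gene. Its adjusted p from edgeR rose above 0.25 when control 2, SAP97-cKO 3 or SAP97-cKO 4 was left out, where it reached 0.427, 0.524 and 0.389, while the log2 fold change stayed between -0.86 and -0.67 over the libraries left out in turn.

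Manf encodes a protein of the ER lumen that is secreted under ER stress and is known as a neurotrophic factor. It had 2116, 1812, 1580 and 1591 normalized counts in controls and 1134, 1319, 1187 and 1225 in SAP97-cKO. The groups did not overlap, and the mean fell to 68.5% of control (log2 fold change -0.54, standard error 0.10, adjusted p = 0.195 from edgeR). Manf (ENSMUSG00000032575) lies at chr9:106838312-106891979 on the minus strand, and 312 of its 3524 exon bases lie opposite exons of other genes. Whether strand was used in counting is not stated in the labels or methods, so reads of those bases cannot be assigned to Manf with certainty. Without control 2, SAP97-cKO 3 or SAP97-cKO 4 the adjusted p of Manf from edgeR was 0.507, 0.622 and 0.463.

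Creld2, a secreted ER protein with disulfide isomerase activity, had 747, 621, 629 and 572 normalized counts in controls and 468, 455, 492 and 435 in SAP97-cKO. Again the groups did not overlap. The mean fell to 72.04% of control (log2 fold change -0.47, standard error 0.10), and the adjusted p from edgeR, 0.2496, was only just under the threshold. Creld2 (ENSMUSG00000023272) lies at chr15:88819646-88826683 on the plus strand. Creld2 lost its call with DESeq2 size factors or with at least 10 counts required in every library, and when control 2, control 3, SAP97-cKO 2, SAP97-cKO 3 or SAP97-cKO 4 was left out. Each of Sdf2l1, Manf and Creld2 gave p = 0.0286 in the exact two-sided permutation test.

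**Figure D2:**
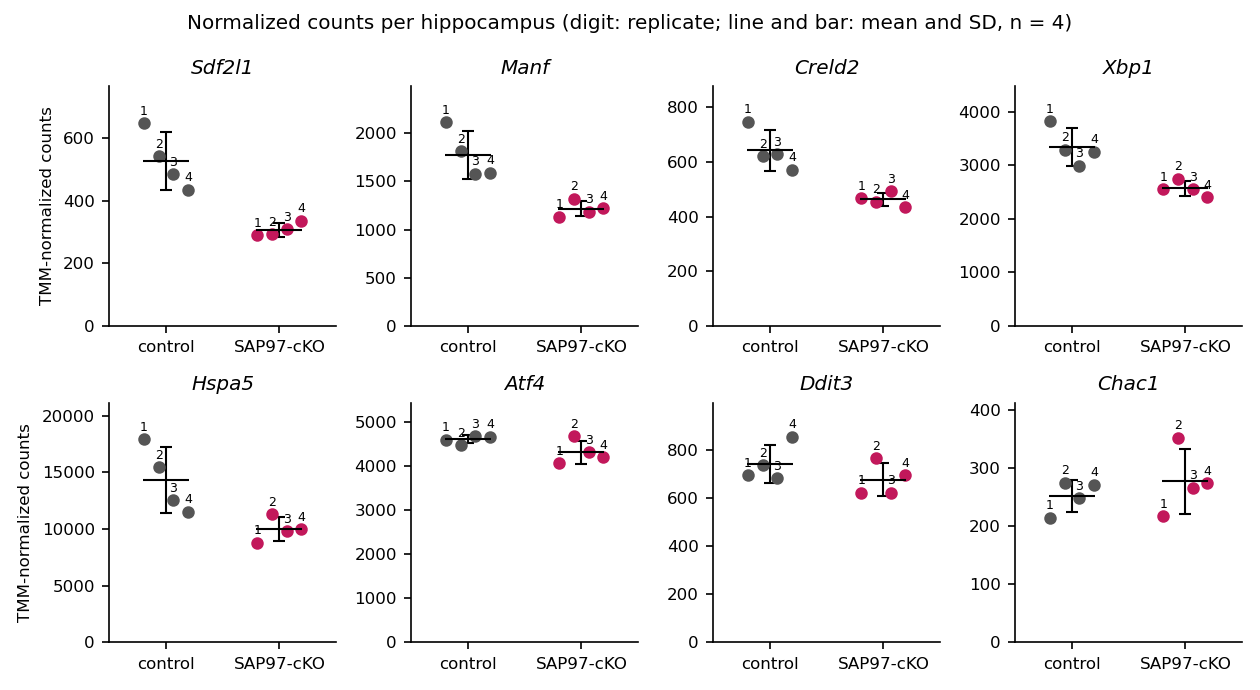
Normalized counts (y axis, from 0) of 5 genes of the XBP1 and ATF6 side and of Atf4, Ddit3 and Chac1 in each control (grey) and SAP97-cKO (red) library; digits give the replicate, and lines and bars the mean and SD of 4 mice. The groups of Sdf2l1, Manf, Creld2, Xbp1 and Hspa5 do not overlap, and those of Atf4, Ddit3 and Chac1 do.

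The HSP70 and HSP90 chaperones of the ER gave estimates of unlike size, none of them past the threshold. Hspa5, which encodes BiP, had 17950, 15450, 12530 and 11540 normalized counts in controls and 8796, 11340, 9787 and 10020 in SAP97-cKO. The groups did not overlap, but the controls spread widely and SAP97-cKO 2 lay close to control 4 (log2 fold change -0.53, standard error 0.14, adjusted p = 0.316 from edgeR). Hspa5 (ENSMUSG00000026864, chr2:34771970-34777547, plus strand) passed the threshold in DESeq2, without scaling, without the filter and without control 1. Hsp90b1, which encodes GRP94, had 10990 to 14520 normalized counts in controls and 10330 to 12110 in SAP97-cKO, so that the groups overlapped (log2 fold change -0.24, standard error 0.10). Hyou1, a large relative of HSP70 that helps BiP to exchange nucleotide, had 3770 to 5104 normalized counts in controls and 3823 to 4528 in SAP97-cKO (log2 fold change -0.04, standard error 0.10).

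All 3 J-domain partners of BiP in the set had estimates below 0, and none passed the threshold in edgeR with TMM and all 8 libraries. Dnajc3 (p58IPK) had 3310 to 4764 normalized counts in controls and 2875 to 3449 in SAP97-cKO, with an overlap at control 4 (log2 fold change -0.38, standard error 0.11, adjusted p = 0.330 from edgeR). Dnajb9 (ERdj4) had 1846 to 2123 in controls and 1612 to 1798 in SAP97-cKO, with no overlap (log2 fold change -0.21, standard error 0.07). Dnajb11 (ERdj3) had 2032 to 2522 in controls and 1801 to 2216 in SAP97-cKO, with an overlap (log2 fold change -0.19, standard error 0.09). Dnajc3 passed in DESeq2, with the replicate block and without control 1, control 4 or SAP97-cKO 1, and Dnajb9 in DESeq2 and without control 1. With meningeal fibroblast markers as a covariate, the log2 fold changes were nearer 0, at -0.14 for Dnajc3, -0.06 for Dnajb9 and -0.02 for Dnajb11. Marker level and genotype cannot be told apart in that fit, as given below.

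All 4 protein disulfide isomerases of the set were below control in estimate, and none passed the threshold in edgeR with TMM and all 8 libraries. Pdia4 had 2557, 2523, 1899 and 1881 normalized counts in controls and 1374, 1587, 1708 and 1510.0 in SAP97-cKO (log2 fold change -0.52, standard error 0.12, adjusted p = 0.283 from edgeR). Pdia3, the isomerase that works with calnexin and calreticulin, had 10760, 10460, 9212 and 9778 in controls and 7856, 8471, 8013 and 8167 in SAP97-cKO (log2 fold change -0.31, standard error 0.07, adjusted p = 0.282 from edgeR). Neither gene overlapped between the groups, and both missed the FDR threshold by little. Both passed in DESeq2, without scaling and without control 1 or SAP97-cKO 1, and Pdia4 also without the filter, with the replicate block and without control 3. P4hb, the classical protein disulfide isomerase, did not overlap either (log2 fold change -0.17, standard error 0.07), whereas Pdia6 did (log2 fold change -0.29, standard error 0.10, adjusted p = 0.368) and passed in DESeq2 alone. Ppib, the prolyl isomerase cyclophilin B, had 1793 to 2055 normalized counts in controls and 1637 to 1780 in SAP97-cKO, and 825 of its 3305 exon bases lie opposite exons of Snx22.

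The lectins Calr and Canx hold newly made glycoproteins in the folding cycle. Calr (calreticulin) had 13130 to 16850 normalized counts in controls and 11220 to 13210 in SAP97-cKO, where only control 3 and SAP97-cKO 2 crossed (log2 fold change -0.25, standard error 0.09, adjusted p = 0.365 from edgeR). Calr passed in DESeq2 alone. A pseudogene, Calr-ps, is counted separately in the table, and reads may be split between it and Calr. Canx (calnexin) had 13730 to 14750 in controls and 12960 to 13560 in SAP97-cKO. The groups of Canx did not overlap although the difference was small (log2 fold change -0.09, standard error 0.06, adjusted p = 0.546).

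Among the 7 genes of ER-associated degradation, estimates lay on both sides of 0. Herpud1, a stress-induced organizer of the degradation complex, had 1990 to 2293 normalized counts in controls and 1672 to 1865 in SAP97-cKO, with no overlap (log2 fold change -0.26, standard error 0.07, adjusted p = 0.316 from edgeR). It passed in DESeq2, without scaling and without control 1 or SAP97-cKO 1. Derl2, a channel-like protein of the same machinery, did not overlap (log2 fold change -0.21, standard error 0.08), and Derl1 did (log2 fold change -0.08, standard error 0.06). The core of the ubiquitin ligase showed estimates just above 0, with 0.10 for Syvn1 (standard error 0.09) and 0.03 for its partner Sel1l (standard error 0.10) on the log2 scale. Edem1, which targets mannose-trimmed glycoproteins, gave 0.09 (standard error 0.09). Derl3 had only 15.5 to 28.4 normalized counts per library, and its estimate of 0.13 carried a standard error of 0.28.

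None of the 3 translocon genes passed the threshold in edgeR. Log2 fold changes were -0.14 for Sec61b (standard error 0.12), -0.08 for Sec61a1 (standard error 0.07) and 0.01 for Ssr1, which encodes a subunit of the translocon-associated complex (standard error 0.07). The groups overlapped for each of the 3. With libraries left out in turn, Sec61b ran from -0.21 to -0.04 and Sec61a1 from -0.12 to -0.05. Together the degradation and translocon genes gave all 5 positive estimates of the chaperone arm, namely Syvn1, Edem1, Sel1l, Derl3 and Ssr1.

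The PERK-ATF4 arm was then compared with the chaperone arm. None of its 5 genes passed the threshold in edgeR, limma-voom or DESeq2, none reached an unadjusted p under 0.05 in edgeR, and the groups overlapped in all 5. The median log2 fold change was -0.09, and the 5 estimates ran from -0.17 to 0.14.

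Atf4, the transcription factor of this arm, had 4590, 4467, 4672 and 4657 normalized counts in controls and 4056, 4670, 4301 and 4198 in SAP97-cKO. SAP97-cKO 2 lay within the control range and the other SAP97-cKO libraries below it (log2 fold change -0.09, standard error 0.06, adjusted p = 0.547 from edgeR). The exact two-sided permutation test gave p = 0.114 for Atf4. Ddit3, which encodes the stress factor CHOP, had 695, 738, 683 and 855 normalized counts in controls and 623, 768, 622 and 695 in SAP97-cKO. Its groups overlapped widely (log2 fold change -0.13, standard error 0.10, adjusted p = 0.595 from edgeR).

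Chac1, a glutathione-degrading enzyme, had 215, 275, 249 and 272 normalized counts in controls and 217, 352, 266 and 274 in SAP97-cKO. SAP97-cKO 2 was the highest library for Chac1, and the others lay within the control range (log2 fold change 0.14, standard error 0.15, adjusted p = 0.722 from edgeR). Asns, asparagine synthetase, had 3403, 3462, 3292 and 3842 normalized counts in controls and 3066, 3681, 3562 and 3705 in SAP97-cKO, for means of 3500.0 ± 238.5 and 3504 ± 298 (SD, n = 4 each). The log2 fold change of Asns was 0.00 (standard error 0.08). Trib3, a pseudokinase, had 18.0, 26.9, 6.80 and 21.4 normalized counts in controls and 18.3, 20.9, 15.2 and 10.4 in SAP97-cKO. At so few counts the standard error of Trib3 was 0.41 and no difference was detectable at this depth (log2 fold change -0.17).

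Set side by side, the medians of the log2 fold changes differed by -0.105 (chaperone arm minus PERK-ATF4 arm). With libraries left out in turn this difference ran from -0.174 to -0.076, and it was -0.174 without control 2 and -0.163 without SAP97-cKO 4. The mean log2 CPM (counts on a common scale of library size) of the 26 chaperone arm genes was 6.23, 6.15, 6.03 and 5.98 in controls and 5.85, 5.90, 5.90 and 5.89 in SAP97-cKO. There was no overlap between the groups in this mean. For the 5 PERK-ATF4 genes the mean log2 CPM was 3.84, 4.03, 3.60 and 4.05 in controls and 3.75, 4.08, 3.81 and 3.75 in SAP97-cKO, with overlap. The pooled SD between libraries was 0.08 for the chaperone arm mean and 0.19 for the PERK-ATF4 arm mean, so the smaller arm was measured with more spread. Trib3, with few counts in every library, enters the PERK-ATF4 mean with the same weight as the abundant genes. It was lowest in control 3, the library lowest in that mean. The spread without Trib3 was not computed. The difference of the means of the arms within a library was 2.39, 2.11, 2.43 and 1.93 in controls and 2.11, 1.83, 2.09 and 2.14 in SAP97-cKO. These differences overlapped between the groups, so the lower chaperone arm was not resolved from the PERK-ATF4 arm library by library. The pooled SD of these differences between libraries was 0.197. No test of them was made between the groups, and genes of an arm were not treated as replicates.

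**Figure D3:**
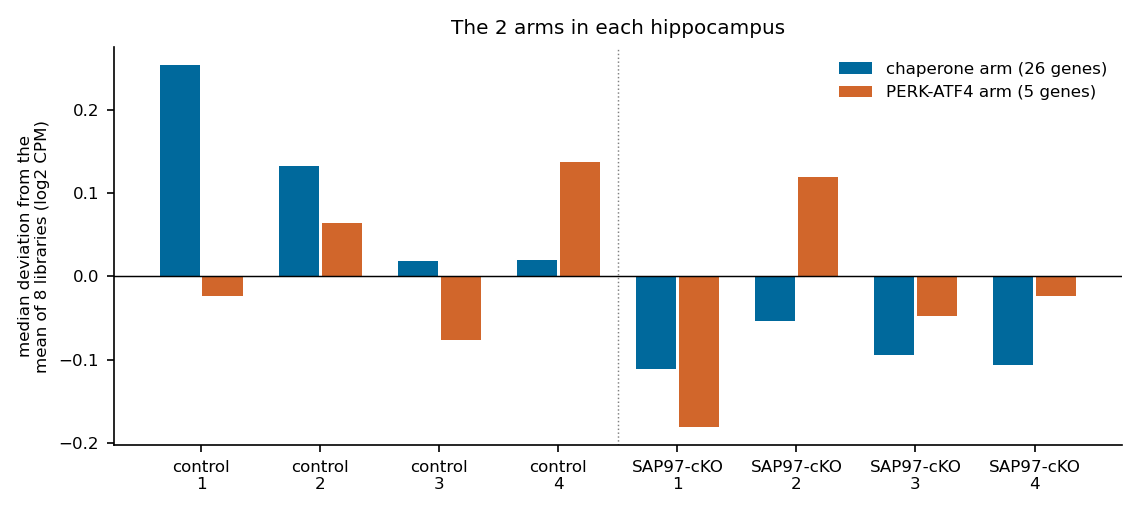
Median deviation of the genes of each arm from their mean over the 8 libraries (y axis, log2 CPM) in each control and SAP97-cKO library (x axis), with bars for the chaperone arm (26 genes) and the PERK-ATF4 arm (5 genes). The chaperone arm is above 0 in all 4 controls (0.25 in control 1, 0.02 in control 3) and below 0 in all 4 SAP97-cKO libraries, while the PERK-ATF4 arm has both signs in both groups.

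The controls were not alike within the chaperone arm. Control 1 was the highest of the 8 libraries in 15 of the 26 genes, control 2 in 5 and control 4 in 3, and control 3, SAP97-cKO 1 and SAP97-cKO 3 in 1 each. The lowest library was SAP97-cKO 1 in 9 genes, SAP97-cKO 4 in 6, SAP97-cKO 3 in 3, SAP97-cKO 2 in 2 and control 4 in the remaining 6. Without control 1, the highest of them, edgeR placed 10 of the 35 genes past the threshold in place of 3, all lower in SAP97-cKO, and 1675 of all 16469 genes tested in place of 48. The median of the chaperone arm was then -0.18.

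Levels per length place the members beside each other. On CPM divided by the kilobases of annotated exon, Calr was the highest in controls (137 ± 14.5, SD, n = 4), followed by Hspa5 (90.9 ± 18.4), Hsp90b1 (86.2 ± 11.1), Pdia3 (85.6 ± 5.92) and Canx (80.8 ± 2.61). The last 4 of these did not differ beyond their spread. Atf4 stood at 52.1 ± 1.06 and Xbp1 at 27.5 ± 2.88 on the same scale. The genes past the threshold were of middle level, at 13.5 ± 1.91 for Manf, 12.7 ± 2.21 for Sdf2l1 and 12.6 ± 1.46 for Creld2, and these levels did not differ beyond their spread. Derl3 (0.271 ± 0.061) and Trib3 (0.230 ± 0.107) were the lowest.

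**Figure D4:**
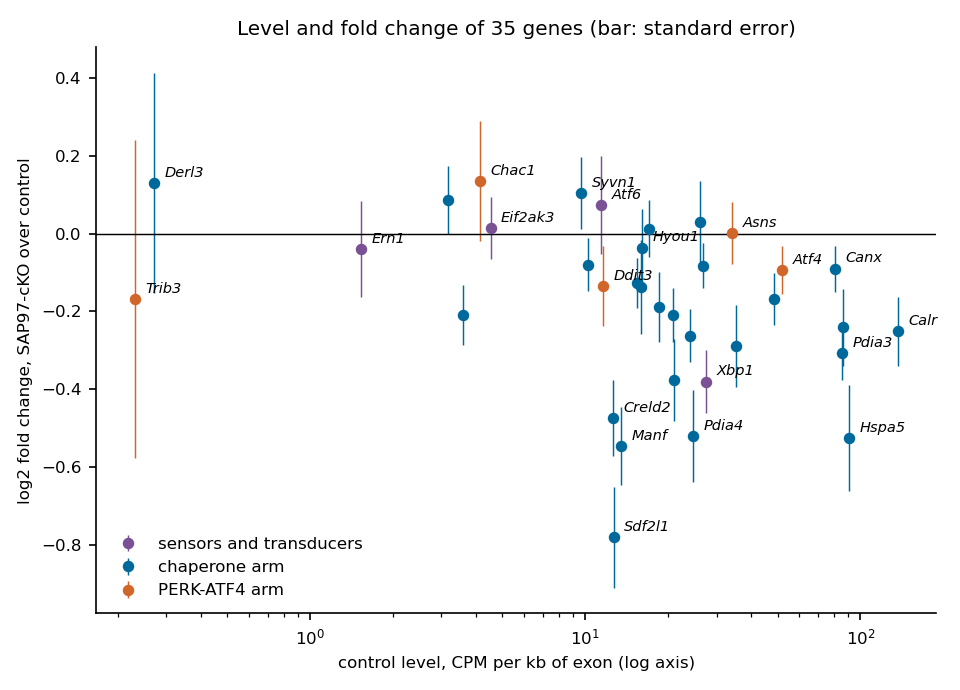
Level in controls (x axis, log scale, CPM per kilobase of exon, mean of 4 libraries) against log2 fold change (y axis, SAP97-cKO over control, bars are standard errors) for the 35 genes, colored by role. Sdf2l1, Manf, Hspa5, Pdia4 and Creld2 lie lowest on the y axis at unlike levels, and Trib3 and Derl3, at the left, have the longest bars.

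Other genes of the same pathways were counted from lists compiled by function, with earlier results of these data known. Of 52 other ER folding and degradation genes, 2 fell at the threshold in edgeR and 0 rose, against 0.283% and 0.0123% of all genes tested. Estimates of 37 lay below 0, against 52.8% of all genes, and the median log2 fold change was -0.05. The 2 were Serpinh1, the collagen chaperone HSP47 (887 to 1070.0 normalized counts in controls against 525 to 768 in SAP97-cKO), and Rcn3, a calcium-binding protein of the secretory pathway (277 to 349 against 194 to 229). Their log2 fold changes were -0.60 for Serpinh1 (standard error 0.12, adjusted p = 0.210) and -0.57 for Rcn3 (standard error 0.11, adjusted p = 0.223). Both genes are on the study's own list of changed genes. Mogs, a glucosidase of glycan trimming, had the smallest p of those with estimates above 0 (log2 fold change 0.10, adjusted p = 0.527 from edgeR).

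Of 22 other ER translocation and transport genes, none passed the threshold in edgeR, and the median log2 fold change was -0.09. At an unadjusted p under 0.05, 2 were lower, against 7.01% of all genes tested. Spcs2, a signal peptidase subunit, had the smallest p (log2 fold change -0.20, standard error 0.07, adjusted p = 0.364 from edgeR), and Sec24d, a COPII coat protein, the smallest among positive estimates (0.14 on the log2 scale, standard error 0.10). Of 11 other ER stress regulators none passed, and 4 lay below 0. Wfs1, an ER membrane protein that restrains ATF6, had the smallest p among estimates above 0, with 4944 to 5743 normalized counts in controls and 5397 to 7788 in SAP97-cKO (log2 fold change 0.34, standard error 0.11, adjusted p = 0.347 from edgeR). Creb3l2, an ER-bound transcription factor, was at -0.27 on the log2 scale (standard error 0.16).

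Of 34 other ATF4 targets and genes of the amino acid response, none passed the threshold in edgeR, 16 lay below 0 and the median log2 fold change was 0.00. At an unadjusted p under 0.05, 5 were lower and 0 higher, against 7.01% and 4.73% of all genes tested. Nupr1, a stress-induced nuclear protein, had 157 to 172 normalized counts in controls and 56.1 to 134 in SAP97-cKO, with no overlap (log2 fold change -0.71, standard error 0.23, adjusted p = 0.347 from edgeR). Slc7a1, a transporter of cationic amino acids, was at 0.16 on the log2 scale (standard error 0.08).

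Chaperones of the cytosol, which belong to the heat shock response, were counted for comparison. Of 22 cytosolic heat shock genes, 4 fell at the threshold in edgeR, against 0.283% of all genes tested. Estimates of 20 lay below 0, against 52.8% of all genes, and the median log2 fold change was -0.17. The 4 were Hspb1, Hspb8 and Cryab, small heat shock proteins, and Fkbp4, a cochaperone of HSP90, all of which the study also lists as changed in these libraries. The fold was largest for Hspb1, with 196 to 316 normalized counts in controls and 77.9 to 125 in SAP97-cKO (log2 fold change -1.09, standard error 0.20, adjusted p = 0.195 from edgeR). Fkbp4 had the narrowest groups, with 5254 to 5673 in controls and 4429 to 4541 in SAP97-cKO (log2 fold change -0.30, standard error 0.06, adjusted p = 0.195 from edgeR). On the log2 scale, Hspb8 fell by 0.52 (standard error 0.10) and Cryab fell by 0.51 (standard error 0.11). Hsp90ab1, the most abundant of the list, differed by 0.03 on the log2 scale (standard error 0.09).

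Markers of other cell types moved between the groups beside the chaperone arm. All 20 meningeal fibroblast markers had estimates below 0, with a median log2 fold change of -1.08. Of the 20, 7 fell at the threshold in edgeR, all of them also on the study's own list of changed genes. Shares over all genes tested were 0.283% lower at the threshold and 52.8% below 0. The summed CPM of the 20 markers was 421, 713, 425 and 400.3 in controls and 252, 372, 316 and 215 in SAP97-cKO. Igf2 was the most abundant of the 20, and no marker was at 0 in every library. The 5 with the smallest p were Ogn (log2 fold change -1.32), Col1a2 (-1.01), Slc22a6 (-1.58), Mgp (-1.001) and Aldh1a2 (-1.25). With the mean level of these markers as a covariate, edgeR gave a log2 fold change of -0.82 for Sdf2l1 (standard error 0.26), -0.40 for Manf (0.19), -0.42 for Creld2 (0.20), -0.27 for Hspa5 (0.25) and -0.23 for Xbp1 (0.16). No gene of the table passed the threshold in that fit, in which 666 genes had an unadjusted p under 0.05 and the adjusted p of Sdf2l1, Manf and Creld2 was 0.987 each. Groups did not overlap in the summed CPM of these markers, so a fit with this covariate cannot tell marker level from genotype. The standard error of Sdf2l1 was 0.13 without the covariate and 0.26 with it. The median of the chaperone arm with the covariate was -0.14 and that of the PERK-ATF4 arm 0.01. In that fit, 1 of the 26 chaperone arm genes was lower at an unadjusted p under 0.05, in place of 14. Over all genes tested, 244 were lower at that p, in place of 1139.

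The 12 choroid plexus markers, led by Ttr, were below control in estimate in all 12, and 0 passed the threshold. Their summed CPM ranged from 178 to 6938 in controls and from 103 to 2385 in SAP97-cKO. With control 2, control 3 and SAP97-cKO 2, the libraries richest in these markers, left out, Sdf2l1, Manf and Creld2 no longer passed the threshold in edgeR (adjusted p = 0.475, 0.391 and 0.722), with 2 controls against 3 SAP97-cKO left. Their log2 fold changes in that fit were -0.78, -0.64 and -0.49, as large as with all libraries, and the median of the chaperone arm was -0.22. The mean level of the choroid plexus markers as a covariate also ended these calls in edgeR, with adjusted p of 0.251 for Sdf2l1, 0.296 for Manf and 0.370 for Creld2. The log2 fold changes with this covariate were -0.78, -0.53 and -0.45, and the median of the chaperone arm was -0.197. All 10 oligodendrocyte markers, led by Mbp, had estimates below 0 (median -0.49) and 0 passed. Their summed CPM was 6035 to 9652 in controls, 8457 in SAP97-cKO 1 and 4672 to 5114 in the other SAP97-cKO libraries. The 7 endothelial markers, led by Flt1, had a median of -0.25, the 7 microglia markers one of -0.08, the 7 astrocyte markers, led by Slc1a2, one of 0.07 and the 12 neuron markers, led by Snap25, one of 0.11, and none of these genes passed. Of 5 plasma cell markers only Ighm was abundant enough to be tested (log2 fold change -0.25). The part of these cell types in the chaperone values was not tested beyond the fits given here.

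**Figure D5:**
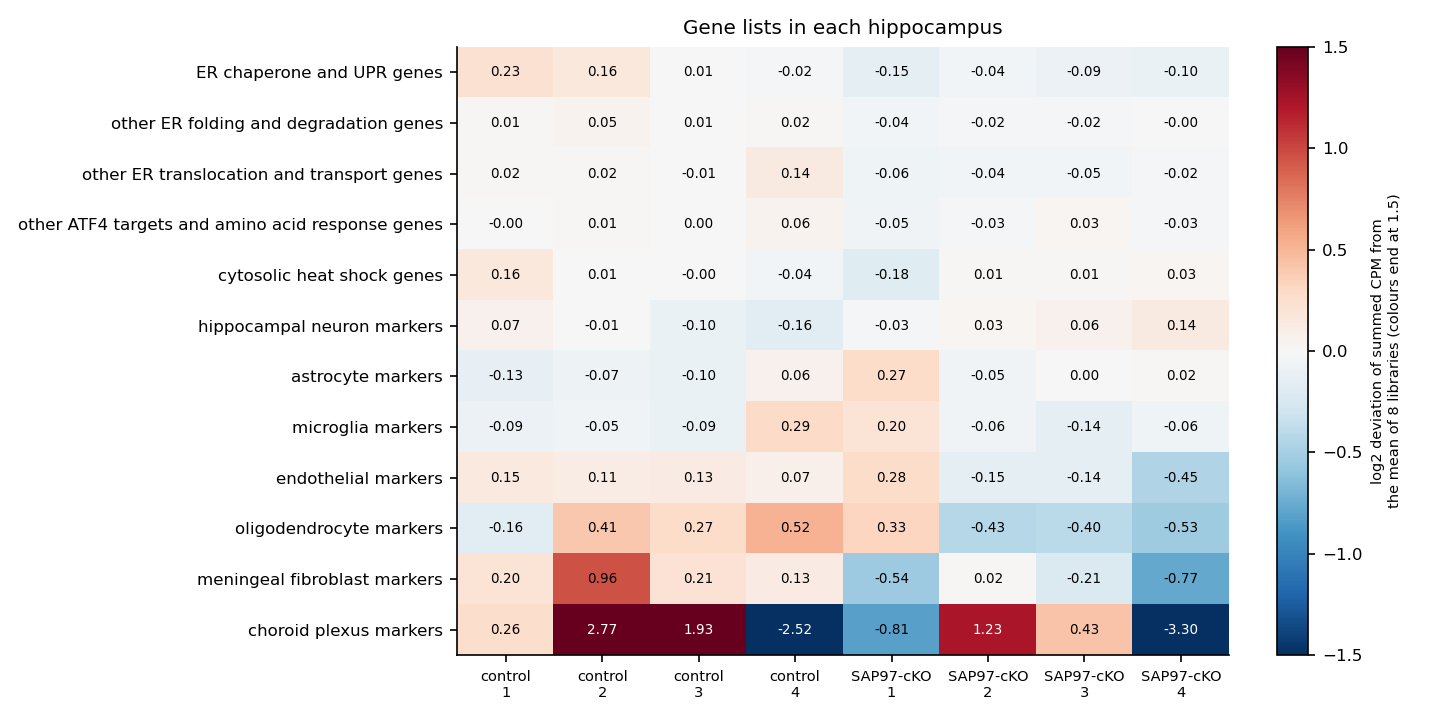
Log2 deviation of the summed CPM of each gene list (rows) from its mean over the 8 libraries, in each library (columns); colors end at 1.5 and the value is printed in each cell. The 35 ER chaperone and UPR genes (4141, 3946, 3553 and 3474 CPM in controls, 3187 to 3426 in SAP97-cKO) are lower in each SAP97-cKO library than in each control, and meningeal fibroblast markers show the same order of the groups over a wider range.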

How the data were processed

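Hippocampal RNA of 4 control and 4 SAP97-cKO mice was sequenced after TruSeq preparation. The authors used STAR 2.5.3a for alignment to mm10 (GRCm38.p5), removed ribosomal and mitochondrial reads, resampled libraries to a common depth and deposited whole-number counts per Ensembl gene, beside columns of their own comparison (log2 fold changes, p-values and q-values), which were not used. Use of strand in counting is not stated in the labels or methods.

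The members and lists were chosen with earlier results of these data known. Genes kept by filterByExpr (minimum count 10, minimum total 15; 16251 of 25834) were scaled by TMM and tested by quasi-likelihood in edgeR 4.0.16 (R 4.3.3). P-values were adjusted by Benjamini-Hochberg over every tested gene. Alternatives used limma 3.58.1 and DESeq2 1.42.0, other scalings, filters and covariates, a replicate block and libraries left out; the fit without the choroid plexus-rich libraries was added after seeing the data. The test was checked on simulated data. Positions and exon lengths came from GENCODE for GRCm38. Genes named singly were all members, genes past the threshold in each other list (at most 5) and its smallest p in each direction, and the most abundant marker of each cell type, of which 1 is not reported here. The p-values measure the spread between these mice.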

Additional observations from a re-analysis of the deposited data

Results flagged for a closer look

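In 9 of 106 groups of 4 libraries, 1 library stood apart from the other 3 by Dixon's criterion, which chance meets in about 1 of 20 groups. Among the members, P4hb had 5793 normalized counts in control 4 against 4902 to 5027 in the other controls, and Sec61b had 907.5 in control 4 against 690.5 to 725.4. Derl2 had 1213 in control 1 against 1023 to 1054, and Ppib had 1637 in SAP97-cKO 1 against 1761 to 1780 in the other SAP97-cKO libraries. Among the summed lists, the ER translocation and transport genes reached 1791 CPM in control 4 against 1623 to 1649, and the microglia markers 513.4 in control 4 against 393.5 to 405.1. Meningeal fibroblast markers reached 712.9 CPM in control 2 against 400.3 to 424.8. In SAP97-cKO 1 the cytosolic heat shock genes summed to 5830 CPM against 6665 to 6742, and the oligodendrocyte markers to 8457 against 4672 to 5114.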

How the results depend on the processing

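The median log2 fold change of the chaperone arm stayed between -0.243 and -0.142 in all fits, that of the PERK-ATF4 arm between -0.139 and 0.009, and 0 PERK-ATF4 genes passed the threshold in any fit. Counts of calls depended on the setting. Against 48 genes and 3 members, DESeq2 gave 1033 and 12, no scaling 95 and 8, no filter 104 and 6, and the replicate number as a block 256 and 6, although same-numbered libraries correlated by only -0.058 to 0.257 and share only a number. The meningeal covariate gave 0 and 0, the choroid plexus covariate 16 and 0, libraries rich in choroid plexus left out 23 and 0, and an FDR of 0.05 in edgeR 0 and 0, with 1907 genes at an unadjusted p under 0.05. With libraries left out in turn there were 0 to 1675 genes and 0 to 10 members, with 0 and 0 without control 2, SAP97-cKO 3 or SAP97-cKO 4 (1403, 1259 and 1167 genes at an unadjusted p under 0.05 in edgeR). The cause was not tested. Signs turned in 12 members, none of them past the threshold. With the meningeal covariate the log2 fold changes were -0.0199 for Atf6, 0.1043 for Ern1, 0.0532 for Hsp90b1, 0.0151 for Hyou1, -0.15 for Derl3 and 1.08 for Trib3, with the choroid plexus covariate 0.0571 for Ern1 and -0.0232 for Asns, and without scaling -0.0300 for Eif2ak3, -0.0126 for Sel1l, -0.0308 for Ssr1 and -0.0443 for Asns. Asns was at -0.0001 in limma-voom and 0.0 with the replicate block. Without the libraries rich in choroid plexus, Ern1 was at 0.14, Sec61a1 at 0.0031 and Asns at -0.0610. With libraries left out in turn the ranges crossing 0 were -0.0324 to 0.1499 for Atf6, -0.1442 to 0.0302 for Ern1, -0.0378 to 0.0592 for Eif2ak3, -0.0978 to 0.0508 for Hyou1, -0.0629 to 0.1001 for Sel1l, -0.0055 to 0.2738 for Derl3, -0.0396 to 0.0636 for Ssr1, -0.4311 to 0.0770 for Trib3, -0.0008 to 0.2429 for Chac1 and -0.0227 to 0.0668 for Asns. Depth limits Trib3 and Derl3 most, at under 30 counts in every library.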

Other observations

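Water channel gene Aqp4, a marker of astrocytes, had 7634 to 10070 normalized counts in controls and 10660 to 13590 in SAP97-cKO, with no overlap (log2 fold change 0.43, standard error 0.11, adjusted p = 0.316 from edgeR). Slc17a7, the vesicular glutamate transporter of excitatory neurons, was at 0.24 on the log2 scale (standard error 0.09, edgeR adjusted p = 0.376), and its groups overlapped. Ermn, a gene of myelinating oligodendrocytes, had 3283 to 4316 normalized counts in controls, 3531 in SAP97-cKO 1 and 1924 to 2329 in the other SAP97-cKO libraries (log2 fold change -0.66, standard error 0.17, adjusted p = 0.316 from edgeR). None of the 3 passed the threshold.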
